A study of Mus musculus with 2 samples.

Results

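The cells described here were the tumour cells with the highest summed level of Hmga2, Nes, Jag1 and Ccbe1 in dissociated mouse tumours. They were chosen by that sum: the top 10% of 10154 tumour cells over both libraries, ranked by the UMIs (unique molecular identifiers, 1 per captured mRNA molecule) of the 4 genes per 10,000 UMIs of the cell. This gave 1016 members, 412 of them among the 6535 tumour cells of the Myct1 knockout library and 604 among the 3619 tumour cells of the wild type (WT) library, out of 21580 barcodes in all. A tumour cell had at least 500 detected genes and at most 10% mitochondrial UMIs, and per 10,000 UMIs it had at least 4 of Krt8 and Krt18 together, at most 5 of the endothelial genes Cdh5, Egfl7 and Emcn, and at most 15 of the fibroblast genes Dcn and Lum. Because the 4 genes chose the cells, their own levels are given as a description.

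The study prepared 1 droplet library per genotype from C57BL/6 mice, each from the pooled tumours of 4 mice, with the Chromium 3′ chemistry, which reads the ends of polyadenylated transcripts. In the knockout mice, Cre recombinase driven by the endothelial cadherin gene promoter acted on a floxed allele of Myct1 (Cdh5-cre Myct1 fl/fl, with the driver written Cdh-cre on the sample). The WT mice are labelled WT with no allele named. The driver is known for endothelial expression. The labels name endothelial cells as the source, but 6535 of 8033 filtered knockout barcodes and 3619 of 7820 filtered WT barcodes met the tumour cell limits. The labels do not name the tumour model. With 1 library a genotype there was no test, and genotype, library and pool of mice cannot be told apart; every interval is an exact 95% interval for counting error only.

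Hmga2 encodes an architectural chromatin protein of embryonic tissue that is normally held low in adult cells by the let-7 family of microRNAs, and it is often re-expressed in carcinomas. Nes encodes nestin, an intermediate filament protein of progenitor cells and of new blood vessels. Jag1 encodes a membrane ligand that activates Notch receptors on neighbouring cells, and Ccbe1 encodes a secreted protein that helps to activate the lymphatic growth factor VEGF-C.

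The libraries held 145331950 UMIs in 10700 barcodes in the knockout and 115519153 UMIs in 10880 barcodes in WT. Both libraries contained 218 barcode sequences in common, 27 of them in tumour cells and 5 in members. Without them, an alternative chosen after seeing the data, 256 genes were higher in members than in other tumour cells in both libraries, against 262 with them. Myct1, the targeted gene, had no row in the knockout table, where every gene reaches at least 4 UMIs in some barcode. In WT it stood at 218 CPM (UMIs of the gene per 1000000 UMIs of the summed cells) in the cells above the endothelial gate, and at 0.40 CPM in members and 0.21 CPM in other tumour cells.

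Members made up 6.30% of knockout tumour cells (5.73 to 6.92%, Clopper-Pearson) and 16.7% of WT tumour cells (15.5 to 17.9%). The median member score, the summed UMIs of the 4 genes per 10,000, was 19.44 in the knockout and 20.003 in WT, against medians of 6.67 and 7.52 in the other tumour cells of the knockout and of WT. The score was continuous across the limit: the 10 members nearest to it had 16.19 to 16.23 and the 10 cells just outside had 16.13 to 16.18. The members are the upper range of a graded score. Scoring at a fixed 5000 UMIs per cell kept the 9405 tumour cells with at least that many. It left out 84 knockout and 45 WT members. Of the 957 cells then chosen, 614 (64.2%) were the same cells, and 6.77% of the knockout and 16.9% of the WT tumour cells kept were members.

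The share of members moved with depth. In the lowest quintile of tumour cells by UMIs, 14.6% of knockout cells (12.5 to 16.8%) and 10.98% of WT cells (9.06 to 13.1%) were members. In the next 4 quintiles, in order of depth, it was 6.00%, 4.59%, 4.29% and 3.75% in the knockout and 23.6%, 19.1%, 16.5% and 15.7% in WT. The libraries thus differed in the lowest quintile, which had the highest share in the knockout and the lowest in WT, and the share was lower with each further quintile in both. Knockout members had a median of 12458 UMIs against 16890 in the other knockout tumour cells, while WT members had 15746.5 against 15622. Few UMIs stood behind some scores: 30 knockout and 15 WT members had fewer than 5 UMIs of the 4 genes. With only cells of at least 10,000 UMIs, members were 5.201% of knockout and 19.8% of WT tumour cells. The part of depth in the difference of shares was not tested beyond these values.

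**Figure D1:**
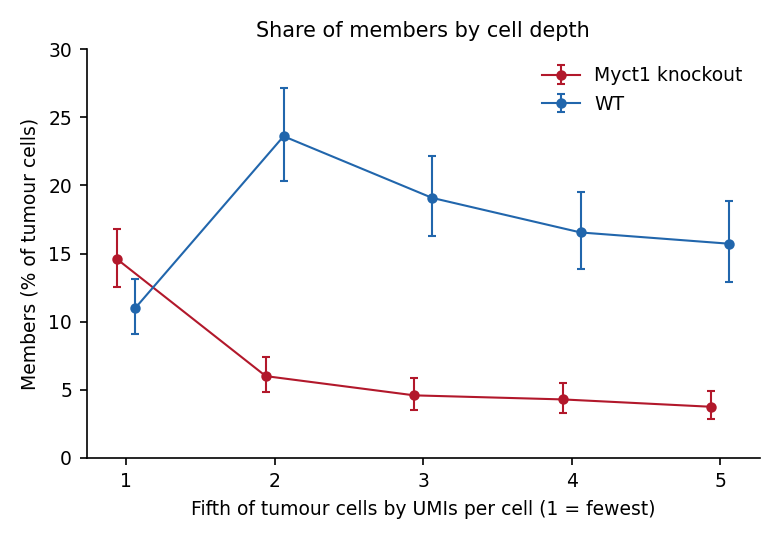
Members as a percentage of tumour cells (vertical axis) in quintiles of all tumour cells by UMIs per cell (horizontal axis), in the Myct1 knockout and WT libraries; points are shares and bars exact 95% intervals for counting error. The knockout lies above WT at 14.6% against 10.98% in the lowest quintile and below it in the other 4.

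Hmga2 carried most of the score, with 60.9% of the members' UMIs of the 4 genes in the knockout and 65.9% in WT. Its level was 1232 CPM in knockout members (1203 to 1261) against 499 CPM in the other knockout tumour cells, and 1380 CPM in WT members (1357 to 1403) against 504 CPM in the other WT tumour cells. Jag1 stood at 413 CPM in knockout members against 101 CPM, and at 332 CPM in WT members against 156 CPM. Ccbe1 stood at 232 CPM in knockout members against 81.6 CPM, and at 244 CPM in WT members against 115 CPM. Nes, with the fewest UMIs, stood at 145 CPM in knockout members against 52.7 CPM, and at 138 CPM in WT members against 74.2 CPM. The log2 ratio of knockout over WT members was -0.16 for Hmga2, 0.32 for Jag1, -0.07 for Ccbe1 and 0.07 for Nes, against -0.01, -0.62, -0.50 and -0.49 for the same genes in the other tumour cells. All 4 genes were detected in 51.9% of knockout and 55.8% of WT members, against 27.1% and 29.5% of the other tumour cells of the knockout and of WT.

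**Figure D2:**
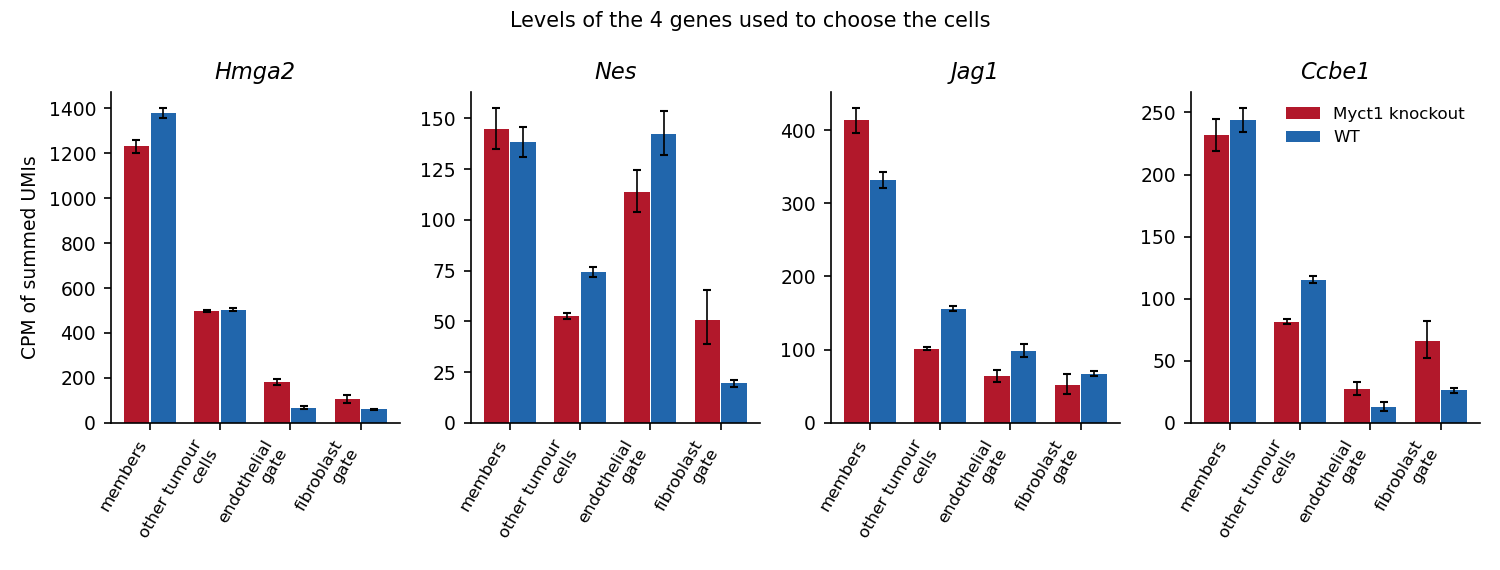
CPM of summed UMIs (vertical axis) of the 4 genes that chose the cells, in members, other tumour cells and cells above the endothelial and fibroblast gates (horizontal axis), with exact Poisson 95% intervals; the vertical axes differ between genes. Members are highest for Hmga2, Jag1 and Ccbe1, while Nes in WT cells above the endothelial gate, 142 CPM, is close to that of WT members, 138 CPM.

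Further values used levels that the choice had not seen. With the cells chosen on a random part of their UMIs and measured on the rest, the log2 ratio of members over other tumour cells was 0.98 in the knockout and 1.21 in WT for Hmga2, 1.70 and 0.80 for Jag1, 1.11 and 0.83 for Ccbe1, and 1.11 and 0.71 for Nes. With the cells chosen by the other 3 genes, the ratio of the gene left out was smaller. For Hmga2 it was 0.61 in the knockout and 0.27 in WT, and for Jag1 1.27 and 0.31. For Nes it was 1.03 in the knockout and 0.49 in WT, and for Ccbe1 1.03 and 0.51. All 4 genes were higher in the cells chosen without them, by less in WT than in the knockout. The median ratio of all genes was itself above 0 for these choices of cells: 0.32 in the knockout and 0.14 in WT without Hmga2, and 0.33 and 0.23 without Jag1.

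Outside tumour cells, Nes and Jag1 were also found in the cells above the endothelial gate. There Nes stood at 114 CPM in the knockout and 142 CPM in WT, and Jag1 at 63.7 and 98.5 CPM. Hmga2 was detected in 20.6% of knockout and 10.4% of WT cells above the endothelial gate at median depths of 8084 and 6540 UMIs, against 99.5% and 98.8% of knockout and WT members. The endothelial markers, 3 of which were in the gate, were low in members: all 14 together summed to 21.2 CPM in knockout members against 19.8 CPM in the other knockout tumour cells, and to 24.3 CPM in WT members against 21.2 CPM. Cdh5 was at 0.72 CPM in knockout members and 0.90 CPM in WT members, and Tek, Erg, Sox17 and Sox18 had no UMI in knockout members. The other 10 of the 14 had UMIs in knockout members, and 13 of the 14, all but Sox18, in WT members. Pecam1 was the highest of them, at 13.8 CPM in knockout members against 12.4 CPM, and at 14.5 CPM in WT members against 12.1 CPM.

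In the GENCODE M21 annotation of GRCm38, Hmga2 (ENSMUSG00000056758.14) lies on chr10:120361275-120476469 on the minus strand, Nes (ENSMUSG00000004891.16) on chr3:87971078-87980451 on the plus strand, and Jag1 (ENSMUSG00000027276.7) on chr2:137081456-137116644 on the minus strand. The let-7 microRNAs were not measured, since the libraries capture polyadenylated RNA. Their mature sequences are shown because let-7 is the known repressor of Hmga2, with the seed, bases 2 to 8, in capitals (RefSeq, GRCm38.p6); all 9 members of the family in the table share it.
mmu-let-7a-5p: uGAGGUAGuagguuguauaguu
mmu-let-7i-5p: uGAGGUAGuaguuugugcuguu
mmu-miR-98-5p: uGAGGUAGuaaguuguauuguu

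The complement of the seed, CTACCTC, occurred 4 times in the 3014 bases of the Hmga2 3′ untranslated region of its longest coding transcript, and not in those of Nes, Jag1 or Ccbe1. The sites are shown 5′ to 3′ on the transcript, with the match in capitals.
Hmga2 site 1, chr10:120364224-120364242: acattcaatttCTACCTCa
Hmga2 site 2, chr10:120362987-120363005: actcctcaataCTACCTCt
Hmga2 site 3, chr10:120362549-120362567: tttgcaaggaaCTACCTCc
Hmga2 site 4, chr10:120361691-120361709: aaaacacactaCTACCTCt
The same match was present in 11.3% of the 257 genes with a 3′ region among those higher in members, against 8.82% of 5248 genes measured. The regions of the higher genes were longer, with a median of 1913 against 1212.5 bases, and held 0.0548 matches per kilobase against 0.0559, so other let-7 matches were no denser in genes that were higher in members.

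The promoters of Hmga2, Nes and Jag1, and of Sema7a, which was high in members as described below, are shown from 250 bases before to 50 after the start (RefSeq, GRCm38.p6). Capitals mark GGGCGG, the motif of SP1, read on both strands.
Hmga2, chr10:120476420-120476719, minus strand: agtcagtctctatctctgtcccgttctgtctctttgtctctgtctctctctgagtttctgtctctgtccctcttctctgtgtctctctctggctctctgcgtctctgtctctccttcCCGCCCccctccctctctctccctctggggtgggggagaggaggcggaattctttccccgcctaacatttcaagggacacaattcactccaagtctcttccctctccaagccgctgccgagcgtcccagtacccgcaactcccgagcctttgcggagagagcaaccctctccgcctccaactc
Nes, chr3:87970843-87971142, plus strand: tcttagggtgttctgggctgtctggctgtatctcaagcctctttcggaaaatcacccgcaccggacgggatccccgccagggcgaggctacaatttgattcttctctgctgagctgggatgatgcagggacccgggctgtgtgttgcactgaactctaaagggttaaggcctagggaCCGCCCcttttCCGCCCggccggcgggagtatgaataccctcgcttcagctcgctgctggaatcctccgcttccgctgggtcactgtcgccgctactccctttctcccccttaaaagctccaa
Jag1, chr2:137116471-137116770, minus strand: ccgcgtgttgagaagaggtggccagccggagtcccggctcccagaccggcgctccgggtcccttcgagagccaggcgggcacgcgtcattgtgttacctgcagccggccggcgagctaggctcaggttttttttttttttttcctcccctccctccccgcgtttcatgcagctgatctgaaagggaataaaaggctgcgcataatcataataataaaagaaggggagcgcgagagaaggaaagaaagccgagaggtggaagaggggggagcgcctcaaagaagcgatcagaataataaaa
Sema7a, chr9:57939862-57940161, plus strand: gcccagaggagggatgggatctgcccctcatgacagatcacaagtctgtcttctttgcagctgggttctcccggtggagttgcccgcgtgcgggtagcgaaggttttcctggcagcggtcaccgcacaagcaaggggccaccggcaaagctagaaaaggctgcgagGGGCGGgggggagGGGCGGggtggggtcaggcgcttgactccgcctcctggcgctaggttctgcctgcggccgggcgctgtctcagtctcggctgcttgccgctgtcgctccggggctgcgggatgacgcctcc
GGGCGG occurred once in Hmga2, 2 times in Nes and in Sema7a and not in Jag1, with no matches overlapping. It was present in 75.9% of the promoters of 199 genes higher in members, 71.3% of 4251 measured genes and 35.9% of all 27025 promoters in the table. TGANTCA (AP-1), GGAATG (TEAD) and TGGGAA (RBPJ, the DNA-binding partner of Notch), also read on both strands, were in none of the 4 windows. Among the higher genes AP-1 was in 4.02%, TEAD in 13.1% and RBPJ in 23.6% of promoters, against 4.70%, 11.2% and 21.9% of measured genes and 7.93%, 14.6% and 25.5% of all promoters.

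Counts were summed over members and over the other tumour cells of each library, and a gene was called where its level was at least 1.5-fold different in the same direction in both libraries and reached 20 CPM in the higher class of each. Without the 4 genes, 262 of 5545 genes were higher in members (4.72%) and 4 were lower (0.0721%). Within the knockout alone 1844 of 5756 genes were higher (32.0%) and 128 lower (2.22%), and within WT alone 417 of 5901 were higher (7.07%) and 24 lower (0.407%). The median log2 ratio of all genes was 0.37 in the knockout and 0.22 in WT. Relative to that median gene, 13 genes were higher and 40 lower in both libraries. Of the 262 genes, 95 had under 20 CPM in the other tumour cells of a library and were measured through the members.

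The ratios also followed transcript length. Across 5334 genes with a length, Spearman's correlation of length with the member ratio was 0.60 in the knockout and 0.37 in WT, a description over genes that share these libraries. The median ratio was -0.30 in the knockout and -0.01 in WT for transcripts under 1000 bases, and 0.67 in the knockout and 0.37 in WT for those of at least 8000. The 262 higher genes had a median length of 4962 bases against 3461.5 for all measured genes. Relative to genes of like length, 12 of the 262 genes stayed higher, and 13 genes were lower. With the other tumour cells weighted to the members' clusters, 14 stayed higher and 1 stayed lower. Only Sema7a, Tmcc3, Cnnm4 and Taz were higher, and only Hspb1 lower, in the reported comparison and under all 3 of these adjustments (the median gene, length and clusters).

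**Figure D3:**
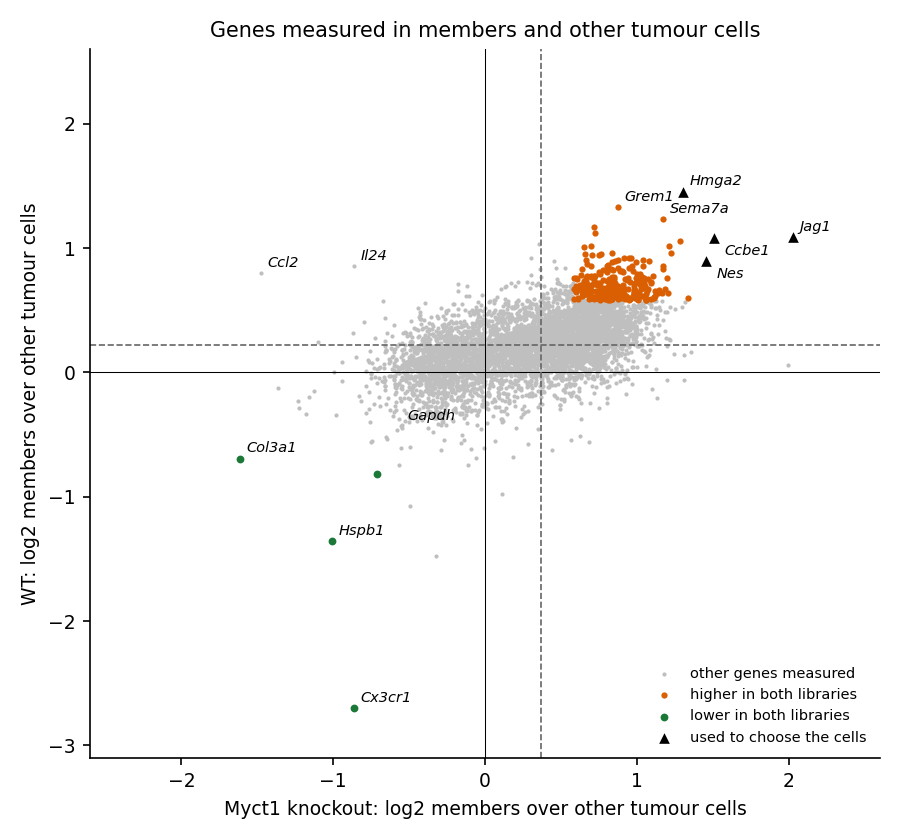
Log2 ratio of members over other tumour cells in the Myct1 knockout (horizontal axis) and in WT (vertical axis) for each gene measured, with dashed lines at the median gene, 0.37 and 0.22. Orange and green points are the 262 genes higher and 4 genes lower in both libraries; triangles are the genes that chose the cells.

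Sema7a, a membrane-anchored semaphorin that binds integrins, led the genes higher in members, ranked by the smaller of the ratios in the libraries. It stood at 166 CPM in knockout members against 73.4 CPM in the other knockout tumour cells, and at 175 CPM in WT members against 74.6 CPM in the other WT tumour cells. The log2 ratio was 1.18 in the knockout (1.08 to 1.27) and 1.23 in WT (1.15 to 1.32), and 0.81 and 1.01 above the median gene. Within the cells of cluster 0, the largest home of members described below, it was 0.58 in the knockout and 0.71 in WT. The knockout value lies just under the 1.5-fold limit, so Sema7a was not called there. It was itself among the leading genes of that cluster, where 36.3% of knockout and 35.4% of WT cells were members.

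Tmcc3, of a coiled-coil protein of the endoplasmic reticulum, stood at 80.0 CPM in knockout members against 32.9 CPM, and at 81.9 CPM in WT members against 39.4 CPM. Cnnm4, a magnesium transporter, stood at 30.5 CPM in knockout members against 13.0 CPM, and at 33.6 CPM in WT members against 17.2 CPM. Taz, in this annotation tafazzin, which remodels mitochondrial cardiolipin, stood at 33.6 CPM in knockout members against 16.3 CPM, and at 33.3 CPM in WT members against 17.8 CPM. Each of these 3 genes was close to equal in the members of the libraries, with log2 ratios of knockout over WT members between -0.14 and 0.01.

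The other genes named by rank came from several groups. Of 20 measured integrin and focal adhesion genes 1 was called higher, and of 13 matrix and basement membrane genes 1, near the 4.72% of all genes. Tnc, which encodes the matrix protein tenascin-C, stood at 517 CPM in knockout members against 244 CPM, and at 837 CPM in WT members against 450 CPM. Plau, the protease urokinase, stood at 67.5 CPM in knockout members against 36.7 CPM, and at 67.8 CPM in WT members against 36.2 CPM. Grem1, a secreted antagonist of bone morphogenetic proteins, stood at 20.1 CPM in knockout members against 10.9 CPM, and at 40.0 CPM in WT members against 15.9 CPM. The transporter Slco4a1, the phosphatase Ubash3b, the LIM-domain gene Fhl3, the adaptor Bcar3 and the nuclear envelope gene Syne1 had log2 ratios of 0.92 to 1.21 in the knockout and 0.89 to 1.02 in WT. Relative to genes of like length, Plau, Slco4a1 and Fhl3 were still called, and Tnc, Grem1, Ubash3b, Bcar3 and Syne1 were not.

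Hspb1, a small heat shock protein, was the gene lower in members under every adjustment above. It stood at 268 CPM in knockout members against 540 CPM in the other knockout tumour cells, and at 145 CPM in WT members against 371 CPM in the other WT tumour cells, log2 ratios of -1.01 (-1.08 to -0.94) and -1.36 (-1.43 to -1.28). Hist1h4i, a histone H4 gene, stood at 22.3 CPM in knockout members against 36.4 CPM, and at 19.3 CPM in WT members against 33.9 CPM. Cx3cr1, the receptor for fractalkine, came from few cells: 15 knockout and 23 WT members had a UMI of it, and it stood at 17.2 CPM in knockout members against 31.3 CPM, and at 9.40 CPM in WT members against 61.1 CPM. Without Hmga2 in the score, Cx3cr1 had a log2 ratio of -0.012 in WT and Hist1h4i had -0.30 in the knockout and -0.14 in WT, so neither was called, and without Nes in the score Cx3cr1 had 0.049 in the knockout. Among genes under the 1.5-fold limit, the metal-binding gene Mt1 had log2 ratios of -0.57 in the knockout and -0.75 in WT, the heat shock gene Dnajb1 -0.74 and -0.55, and the glycolytic enzyme Gapdh -0.55 and -0.43.

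Col3a1, a fibrillar collagen typical of fibroblasts, stood at 23.5 CPM in knockout members against 71.9 CPM, and at 88.4 CPM in WT members against 143 CPM. Fibroblast markers moved with it: the 11 markers, which include Col3a1, summed to 37.0 CPM in knockout members against 120 CPM, and to 205 CPM in WT members against 435 CPM. Lum, Pi16, Dpt and Mfap5 had no UMI in knockout members, and all 11 markers had UMIs in WT members. Without cells that had any UMI of the endothelial and fibroblast gate genes, the WT ratio of Col3a1 was 0.16 and no longer below 0.

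The pathway lists were read beside the 4.72% of all genes called higher and the medians of 0.37 in the knockout and 0.22 in WT. Of 16 measured targets of the ERK kinase pathway, 6 were higher and none lower, with a median log2 ratio of 0.72 in the knockout and 0.43 in WT. The 6 were Dusp6, Dusp5 and Spred2, which feed back on the pathway, the transcription factor Etv4, the cyclin Ccnd1 and the receptor Epha2. None of the 6 stayed called relative to the median gene or with the other tumour cells weighted to the members' clusters. Relative to genes of like length, Etv4 alone stayed called. Dusp6 stood at 165 CPM in knockout members against 92.7 CPM, and at 175 CPM in WT members against 89.8 CPM. Dusp4 stood out in WT, where members had 38.9 CPM against 62.4 CPM in the other tumour cells.

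Of 10 measured matrix proteases and their inhibitors, 4 were higher: Plau, Plat, Mmp14 and Adam19. None of the 4 stayed called relative to the median gene, and Plau alone did relative to genes of like length. With the other tumour cells weighted to the members' clusters, Plau and Adam19 stayed called. Mmp14, a membrane-bound collagenase, stood at 141 CPM in knockout members against 67.9 CPM, and at 131 CPM in WT members against 80.9 CPM. Timp1, an inhibitor of these enzymes, had a log2 ratio of -0.26 in the knockout and 0.30 in WT. Of 15 measured targets of YAP and TEAD, 3 were higher, Nt5e, Ankrd1 and Amotl2, with list medians of 0.65 and 0.45 in the knockout and in WT. Of 5 measured cytokines and chemokines, Lif and Csf1 were higher. Lif stood at 52.4 CPM in knockout members against 29.1 CPM, and at 37.2 CPM in WT members against 21.9 CPM. Nt5e, Amotl2, Lif and Csf1 were called under none of the 3 adjustments above, and Ankrd1 only with the weighting to clusters.

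The families of the 4 genes themselves held few called genes. Among the other Notch ligands and receptors, Notch2 was the gene measured, at 58.7 CPM in knockout members against 38.8 CPM and at 62.8 CPM in WT members against 38.8 CPM, and it was called higher. None of the 3 measured Notch targets was called: the log2 ratio of Hes1 was 0.01 in the knockout and 0.27 in WT. In the Ccbe1 and VEGF-C group, Adamts14 was higher of 5 measured genes, and Vegfc itself stood at 40.9 CPM in knockout members against 25.7 CPM and at 38.3 CPM in WT members against 27.7 CPM, log2 ratios of 0.67 and 0.47. Of 8 measured oncofetal genes and let-7 targets, Ccnd1 was higher; Hmga1, the relative of Hmga2, had log2 ratios of -0.38 and -0.15 in the knockout and in WT. None of 11 progenitor and neural crest genes was called, although Cd44, Sox4 and Sox9 had log2 ratios of 0.77 to 0.99 in the knockout and 0.27 to 0.44 in WT. None of the 4 other intermediate filament genes was called, and Vim had log2 ratios of -0.13 and -0.14. Notch2, Adamts14 and Ccnd1 were called under none of the 3 adjustments above (the median gene, length and clusters).

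Of 7 measured transcription factors of mesenchymal transition none was called, with list medians of 0.68 in the knockout and 0.45 in WT, and 2 of 16 structural genes, Tnc and Mmp14, were higher. Ribosomal protein genes lay below the typical gene, with 0 of 50 called and medians of -0.19 in the knockout and -0.30 in WT. Of 10 measured genes of G2 and mitosis none was called in both libraries, but their median was -0.50 in the knockout and 0.11 in WT. Birc5, a mitotic survival protein, stood at 30.5 CPM in knockout members against 71.5 CPM, and at 39.0 CPM in WT members against 47.6 CPM.

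Tumour cells of both libraries were clustered together without the 4 genes. Cluster 0, led by Slc7a2, Tnc and Ogt, held 44.9% of knockout members and 59.3% of WT members. Members were 36.3% of its knockout cells and 35.4% of its WT cells, shares that lie close together. The cluster itself was 7.80% of knockout tumour cells and 27.9% of WT tumour cells. Cluster 5, led by the interferon-induced genes Rsad2, Ifit3 and Cxcl10, held 19.2% of knockout and 3.64% of WT members. Cluster 4, led by Hspb1, held 14.02% of knockout tumour cells and 2.91% of knockout members. Cx3cr1, Mt1 and Hist1h4i, also named above with lower levels in members, were among its other leading genes. The lower levels of these genes are thus not separate observations. Cluster 7, led by haemoglobin genes, had a median of 4813 UMIs in the knockout and 4743 in WT, and 12.9% of its knockout cells and 3.27% of its WT cells were members. Since several clusters were mostly of 1 library, they may reflect the library.

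**Figure D4:**
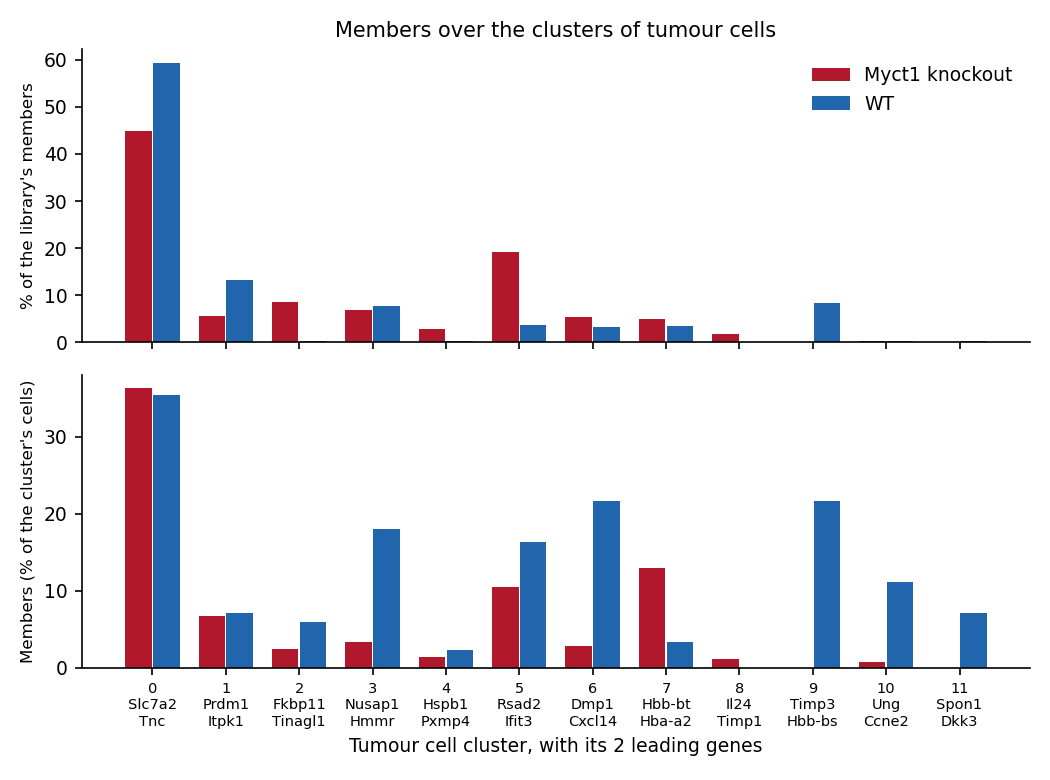
Tumour cell clusters (horizontal axis), made without the 4 genes that chose the cells: the percentage of each library's members in the cluster (upper panel) and of the cluster's cells that are members (lower panel), in the Myct1 knockout and WT. Cluster 0 holds 44.9% of knockout and 59.3% of WT members, and its share of members is nearly equal in both.

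Members of the libraries were also compared with each other. Of 6018 genes, 86 were higher (1.43%) and 129 lower (2.14%) in knockout than in WT members. Among the other tumour cells, 365 of 5435 genes were higher (6.72%) and 801 lower (14.7%) in the knockout than in WT. In cluster 0 alone, 1.63% of genes were higher and 2.53% lower in knockout than in WT members, and 0.65% higher and 1.48% lower in knockout than in WT cells of the cluster that were not members. The lower share of called genes was thus also seen in the other cells of that cluster. Outside cluster 0, 2.21% of genes were higher and 7.22% lower in knockout than in WT members.

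Interferon-stimulated genes led the genes higher in knockout members. Of the 29 genes of the list present in both tables, 28 had a higher level in knockout than in WT members. At least 1.5-fold higher were 27, and the counts in the other tumour cells were 26 and 19. These counts set no minimum level, and no share of all genes is given at that setting. Of the 29 genes, 24 reached 20 CPM in a library in members, but 15 of the 24 did so in the knockout alone and so had to be higher there. The 9 that reached it in both libraries were all called higher in knockout members, with a median log2 ratio of 1.07. Of all 6018 genes that reached 20 CPM in members of either library, 1.43% were called higher. Cxcl10, a chemokine that attracts T cells, stood at 151 CPM in knockout members and 2.599 CPM in WT members, and at 80.3 CPM in the other knockout tumour cells and 12.5 CPM in the other WT tumour cells. Of its knockout UMIs in members, 24.8% came from 1 cell, and without it the level was 114 CPM. Rsad2, an antiviral enzyme, stood at 65.3 CPM in knockout members and 1.80 CPM in WT members. Isg15, a ubiquitin-like modifier, stood at 154 CPM in knockout members and 35.4 CPM in WT members. Ifit1, Ifit3, Cmpk2, Usp18 and Iigp1 were 5.13-fold to 12.4-fold higher in knockout members.

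The interferon difference was smaller without the members of cluster 5. That cluster is led by these same genes and held 19.2% of knockout and 3.64% of WT members. A smaller difference without it was therefore built into the choice. Without the cluster 5 members, 26 of the 29 listed interferon genes had a higher level in knockout members, and 17 were at least 1.5-fold higher. The log2 ratio of Cxcl10 was then 4.16. Over all genes, 40 were then higher in knockout members, against 86 with the cluster. In members of cluster 0, 18 of the 29 were at least 1.5-fold higher. In members outside cluster 0, which include those of cluster 5, 28 of the 29 were. These counts over the 29 genes set no minimum level, and no share of all genes is given beside them. Of all genes that reached 20 CPM in either library, 1.63% were called higher in members of cluster 0 and 2.21% in members outside it. Of the 6 interferon genes that reached 20 CPM in members of both libraries without cluster 5, 2 were called higher, with a median log2 ratio of 0.55. In members of cluster 0 it was 3 of 7, with a median of 0.47. Outside cluster 0 it was all 12, with a median of 1.44. Within the knockout, members had more of Rsad2 than other tumour cells, 65.3 against 18.2 CPM, while in WT they had less, 1.80 against 4.52 CPM.

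The genes lower in knockout members by the widest margin included collagens and haemoglobins, which are typical of other cell types. Col1a1 stood at 1.44 CPM in knockout members (8 UMIs) and 23.7 CPM in WT members, and Col1a2 at 1.08 CPM in knockout members (6 UMIs) and 33.9 CPM in WT members. With the members chosen without Hmga2 in the score, the log2 ratio of knockout over WT members was 0.23 for Col1a1 and -0.11 for Col1a2, so neither was lower by 1.5-fold. The fibroblast markers given above differ between the libraries in the same direction, in members and in other tumour cells. The complement gene C3 had 2 UMIs in knockout members and 263 in WT members. Mgp, a matrix protein that inhibits calcification, stood at 40.9 CPM in knockout members and 110 CPM in WT members. Its log2 ratio of knockout over WT members turned to 0.72 without Hmga2 in the score and to 0.34 in members of cluster 0. The haemoglobin genes Hbb-bs and Hba-a1 had no UMI in knockout members. With that class set to 3 counts they were 202-fold and 49.8-fold lower than in WT members. The interval bounds nearest 0 were -7.36 and -5.33 on the log2 scale. However, 97.9% and 97.4% of their WT member UMIs came from 1 cell. Speer3, of a family of near-identical copies whose reads the counting could split, stood at 15.8 CPM in knockout members and 51.3 CPM in WT members.

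The ratio of members over other tumour cells itself differed between libraries for some genes. Mir17hg, the host transcript of the miR-17 cluster, stood at 48.8 CPM in knockout members against 19.6 CPM, and at 47.5 CPM in WT members against 49.6 CPM. Tnfrsf9, the receptor 4-1BB, stood at 154 CPM in knockout members against 70.3 CPM, and at 96.3 CPM in WT members against 111 CPM. Fstl1, a secreted glycoprotein, and the ribosomal pseudogene Rpl23a-ps3, whose reads can come from its parent gene, had ratios 1.24 and 1.26 higher in the knockout on the log2 scale. In the opposite direction, Ube2c, a mitotic ubiquitin enzyme, stood at 33.6 CPM in knockout members against 71.9 CPM, and at 52.2 CPM in WT members against 44.1 CPM, and Yif1a, of a trafficking protein, at 19.4 against 30.9 CPM in the knockout and at 25.6 against 17.1 CPM in WT. These differences between libraries were not tested.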

How the data were processed

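UMI counts, deposited by the authors as 1 genes-by-barcodes table for each library, were whole numbers with no normalisation; Cell Ranger 2.1.1 and mm10 are named in the submitters' processing notes. The table's total row and sum column were dropped, and 9125 of the 9127 gene symbols listed in both tables were compared (2 symbols sit on 2 rows). Doublets were scored against simulated pairs and kept; leaving out cells scoring above 0.3 was an alternative. Counts were summed per library and class and given as CPM. Ratios have exact conditional binomial intervals, levels exact Poisson and shares Clopper-Pearson 95% intervals, for counting error only; a class at 0 was set to 3 counts for a ratio. Tumour cells were clustered with sklearn 1.9.0 and leidenalg 0.10.2 (Python 3.11.15). Ratios and calls were tested on simulated data. The members and gene lists were chosen with earlier results of these data known. Named genes were the 12 in each direction with the largest smaller ratio over both libraries, the 8 in each direction between the members of the libraries by the interval bound nearest 0, and the 5 in each direction by difference of member ratios, without the genes of the choice, the gates and predicted symbols, and up to 4 of each list by the smaller ratio. Epha2, Spred2, Dusp4, Timp1, Hmga1 and Sox9 fell outside this rule and were chosen after their values were seen.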

Additional observations from a re-analysis of the deposited data

Results flagged for a closer look

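Ccl2, a chemokine for monocytes, and Il24, a cytokine of the interleukin-10 family, differed between members and other tumour cells in opposite directions in the libraries, each by more than 1.5-fold; they were the 2 of 5545 genes to do so, and the difference was not tested. The log2 ratio of Ccl2 in members over other tumour cells was -1.48 in the knockout and 0.80 in WT, with 10.1 CPM in knockout members against 28.0 CPM and 28.3 CPM in WT members against 16.2 CPM. Of the WT member UMIs of Ccl2, 49.5% came from 1 cell, and without it the WT ratio was -0.18. The log2 ratio of Il24 was -0.86 in the knockout and 0.85 in WT, with 66.0 CPM in knockout members against 120 CPM and 165 CPM in WT members against 91.3 CPM. Without the WT member with most Il24, the WT ratio was 0.69. Cluster 8, led by Il24, held 9.24% of knockout tumour cells and 1.70% of knockout members, and 0.17% of WT tumour cells and no WT member; its part in the result was not tested.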

How the results depend on the processing

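No paired analysis was possible because each genotype has 1 library and replicate numbers only name it. Counts are given as genes higher and lower in members (reported 262 and 4), then in knockout over WT members (86 and 129), and shares as knockout and WT (6.30% and 16.7%), where they moved. The top 5% gave 487 and 13, 137 and 246, and 2.95% and 8.70%; the top 20% gave 146 higher, and 14.4% and 30.1%. The top 10% within each library gave 9 lower, 333 lower in knockout members, and shares of 10.0% in both by construction. Scoring at 5000 UMIs, in cells with at least that many, gave 69 higher and 218 lower in knockout members. Members thinned to 5000 UMIs, again only those with at least that many, gave 156 and 389 between libraries. Scoring on a random part of the UMIs gave 225 lower in knockout members. Without Hmga2 in the score, counts were 154 and 61, and 150 higher in knockout members; the ratios of Mt1 (0.063) and Adm (0.67) in WT, and of Col1a1 (0.23) and Mgp (0.72) between libraries, turned positive. Without gate-gene UMIs the WT ratio of Col3a1 was 0.16. Without Nes the knockout ratio of Cx3cr1 was 0.049. At least 2000 genes per cell gave 163 higher, and 5.39% and 19.5%. At most 5% mitochondrial UMIs gave 7 lower, and 7.40% and 15.2%. Means over cells gave 706 and 7, and 200 lower in knockout members. Centring on the median gene gave 13 and 40, and 79 lower in knockout members. CPM without ribosomal and mitochondrial genes gave 109 and 20. A minimum of 5 CPM gave 430 and 18, and 149 and 344; a minimum of 100 CPM gave 45 and 1, and 22 and 12. Against genes of like length, 73 were lower in knockout members. The following were chosen after seeing the data. Like length gave 12 and 13 in members. Weighting to the members' clusters gave 14 and 1. Cluster 0 alone gave 11 higher, shares of 36.3% and 35.4%, a positive WT ratio of Col3a1 (0.10) and a positive ratio of Mgp between libraries (0.34). At least 10000 UMIs gave 133 and 8, and 5.201% and 19.8%. Without cluster 5, 40 genes were higher in knockout members. The causes were not tested. The other 96 values of these counts and shares stayed within 1.5 times, or within the counting interval of the share. Some of them could not move. These were the shares where the same members were kept, and the counts between libraries where only the other tumour cells were weighted. Depth also limits the choice of members: 30 knockout and 15 WT members rest on under 5 UMIs of the 4 genes.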

Other observations

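Other scores overlapped members unevenly, in cells ranked within each library by the summed level of a gene group and taken as its top 10%. The Ddit3 stress score held 19.7% of knockout members against 9.36% of other knockout tumour cells, and 12.4% of WT members against 9.52% of other WT tumour cells. The hypoxia and glycolysis score held 5.83% of knockout members against 10.3%, and 5.96% of WT members against 10.8%. The interferon score held 17.7% of knockout members against 9.49%, and 11.1% of WT members against 9.78%. The Il24 and Nupr1 score held 5.34% of knockout members against 10.3%, but 14.9% of WT members against 9.02%. The Dmp1, Slpi and Id3 score likewise held 7.04% of knockout members against 10.2%, and 11.9% of WT members against 9.62%. The S-phase score held 14.3% of knockout members against 9.72%, and 8.77% of WT members against 10.2%, and the G2 and mitosis score 6.31% of knockout members against 10.3%, and 9.60% of WT members against 10.1%. Sesn2, a stress-induced inhibitor of mTORC1 signalling, stood at 34.5 CPM in knockout members against 15.3 CPM, and at 42.4 CPM in WT members against 23.5 CPM. Trib3, a pseudokinase induced by the same stress response, stood at 36.1 CPM in knockout members against 16.0 CPM, and at 54.7 CPM in WT members against 30.7 CPM. They were the 2 called of 23 measured genes of the stress and unfolded protein responses, beside 4.72% of all genes. The list medians were 0.30 in the knockout and 0.19 in WT, below those of all genes, 0.37 and 0.22. Sesn2 and Trib3 stayed called relative to the median gene and to genes of like length. With the other tumour cells weighted to the members' clusters, neither was called.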
